A study of Mus musculus with 10 samples.

Results

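The 9 genes described here encode transcription factors that mark the prosensory domain of the inner ear and the supporting cells that derive from it: Sox2, Sox9, Sox10, Sox21, Eya1, Gata3, Pax2, Isl1 and Prox1. They were chosen by name and each matched 1 of the 48709 genes in the deposited tables. The libraries were made from supporting cells of the murine utricle, a vestibular organ, sorted by the fluorescence of an Lfng-EGFP reporter from animals at postnatal day 21. All utricles were cultured, for 5 days in 0.1% DMSO, the solvent, either alone (DMSO_d5) or with 10 µM TRULI (TRULI_d5), and a second pair of conditions received 5 further days without the compound (TRULI_d10 and DMSO_d10). TRULI inhibits the Lats kinases, which restrain the coactivator Yap. The sample labels give 3, 3, 2 and 2 libraries to TRULI_d5, DMSO_d5, TRULI_d10 and DMSO_d10. Because the reporter is driven by Lfng, a gene that supporting cells express, the sort follows that gene, and nothing in the labels says which utricles were pooled in which library. Where separate cultures are not documented, the p-values below measure only the spread between libraries.

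The prosensory domain is the patch of otic epithelium from which hair cells and supporting cells arise. Sox2 is required to specify it, Eya1 acts upstream of it, and Pax2 and Gata3 are early regulators of the otic placode and of the sensory and neuronal lineages. Sox9 and Sox10 belong to the SoxE group and are expressed in the early otic epithelium. Sox21 is a repressor of the SoxB group that is related to Sox2, and the homeodomain proteins Isl1 and Prox1 appear in sensory progenitors. In the postnatal epithelium several of these proteins persist in supporting cells.

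For 4 libraries the name of the deposited table contradicts the label. Names for DMSO_d10 are carried by the libraries labelled TRULI_d5 replicates 1 and 2, and names for TRULI_d5 by both libraries labelled DMSO_d10. Both groupings are therefore reported, the sample label first. The summed FPKM (fragments per kilobase, scaled to the protein-coding total) of 6 proliferation markers was 200 to 270 in the 2 libraries labelled DMSO_d10. It was 1.88 and 0.599 in the libraries labelled TRULI_d5 replicates 1 and 2, and 62.8 in replicate 3, whose label and name agree. By name, 5 of 5 tested proliferation markers were higher with TRULI at 5 days at an edgeR adjusted p under 0.05, against 3.3% of all tested genes. By label 0 were tested there, and 5 of 6 were higher at that threshold between days in DMSO, against 2.49%. The Yap target Ccn2 was higher in the libraries labelled DMSO_d10 than in those labelled DMSO_d5, at a log2 fold change of 5.35 (SE 0.30, edgeR adjusted p = 2.14e-05). The tables sum to 2463872 to 6255149 counts. The mitochondrial ribosomal RNA mt-Rnr2 took 13% to 26.4% of the counts in 6 libraries and 1.45% to 2.53% in the other 4, which are the libraries named for day 10. All 10 supporting-cell markers on the list used had counts in every library, with summed FPKM of 1390 to 5190. In bulk libraries, fewer cells of a type and less RNA per cell cannot be told apart.

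Sox9 was the most abundant of the factors in 10 of 10 libraries, at a mean of 215 FPKM (range 168 to 268). Sox21 followed at 99.5 FPKM and was second in 8 libraries. Eya1 had a mean of 68.4, Isl1 of 67.3 and Sox2 of 39.3 FPKM. The ranges of these neighbours overlapped, with Eya1 at 49.6 to 84.7, Isl1 at 28.6 to 106 and Sox2 at 17.8 to 61.6 FPKM. Sox10 (3.53 to 20.9 FPKM) and Prox1 (4.39 to 10.1) were lower than these in mean, and Gata3 was lower still, at 0.501 to 3.16 FPKM on 3 to 49 counts. Of 11138 protein-coding genes with at least 10 counts on average, 96.7% had a lower mean FPKM than Sox9, 78.2% than Sox2 and 5.2% than Gata3. Pax2 was at the edge of detection, with 0 to 17 counts per library and 0 counts in 3 libraries. A count of 0 allows up to 3 counts, which is 0.471 to 1.2 CPM (counts per 1000000 counts of the library) in these libraries; this limit covers counting error only.

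**Figure D1:**
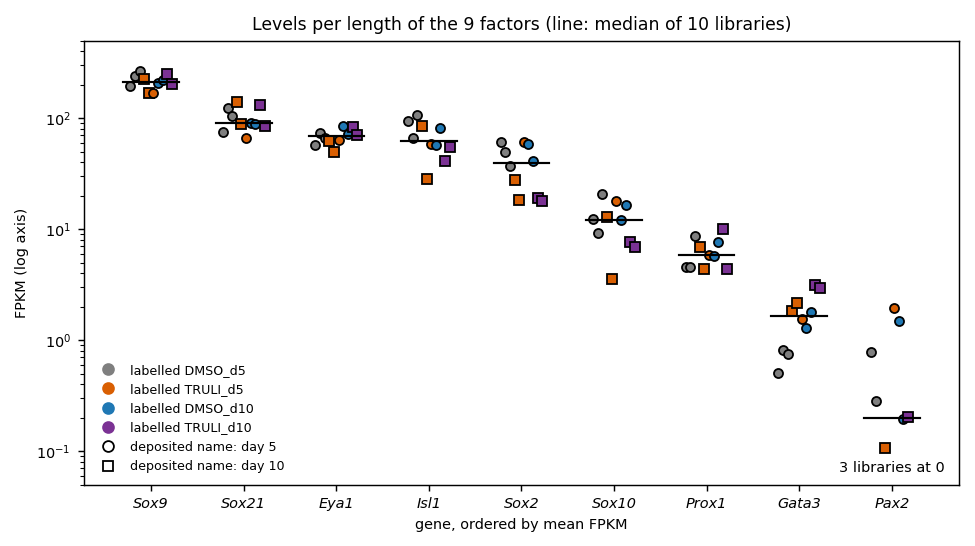
FPKM of the 9 factors on a log axis, 1 symbol per library, with the median of 10 libraries as a line; colour gives the labelled condition and shape the day in the deposited name. Sox9 lies above the other factors in every library, and Pax2 is at 0 in 3 libraries, which cannot be drawn on the log axis.

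Of the 8 factors with at least 10 counts on average, 7 varied less between the libraries than the median gene. The SD of log2 CPM over the 10 libraries was 0.22 for Eya1 and 0.27 for Sox9, and only 0.979% and 3% of the 11138 genes had a smaller one. A constant was added to CPM before the logarithm, as for the correlations below, which lowers the SD most at low CPM. Counting error raises the SD most at low counts. The genes were not matched on level, and Sox9 averaged 3058 and Eya1 996 counts, so these shares do not measure stability apart from level. Eya1 differed 1.6-fold and Sox9 1.84-fold between the highest and the lowest library. The median SD over all these genes was 0.66. Prox1 was at 0.43, Sox21 at 0.44, Sox2 at 0.56 and Sox10 at 0.59. Gata3 was the exception, with an SD of 0.77 and a 7.46-fold range on the lowest counts of the 8.

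**Figure D2:**
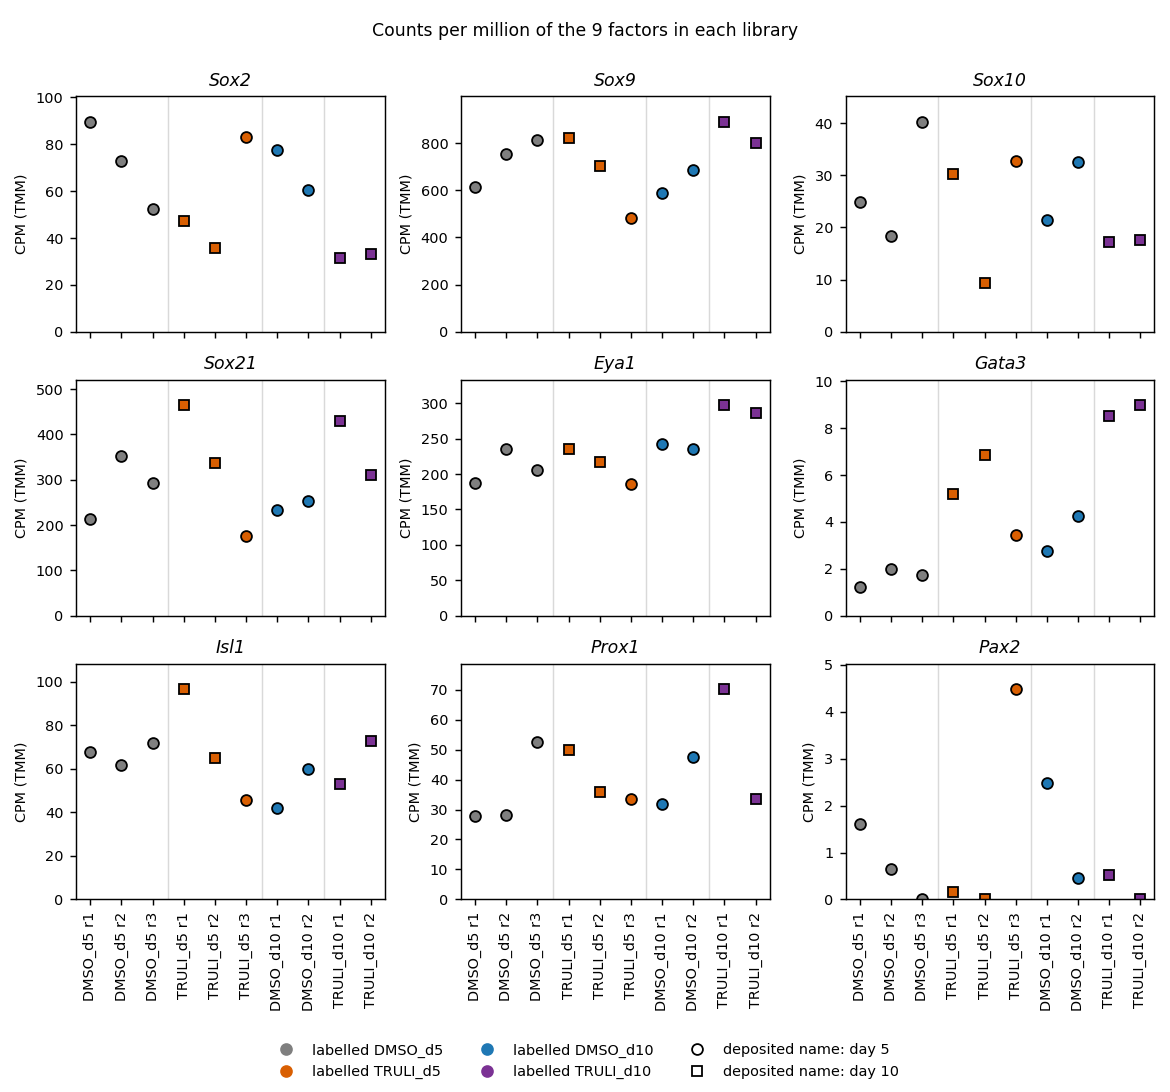
CPM scaled by TMM factors for each factor in each of the 10 libraries, with a linear axis from 0; colour gives the labelled condition and squares mark libraries named for day 10. The 4 squares are the lowest points for Sox2 and the highest for Gata3.

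Sox2 (ENSMUSG00000074637, GRCm38 chromosome 3, 34650405 to 34652461, a gene of 1 annotated transcript) was at 89.7, 72.8 and 52.4 CPM in DMSO_d5 replicates 1 to 3. It was at 47.4, 35.7 and 83.3 CPM in the libraries labelled TRULI_d5 replicates 1 to 3. The libraries labelled DMSO_d10 held 77.5 and 60.6 CPM, and those of TRULI_d10 held 31.6 and 33 CPM. The 4 libraries below 50 CPM were thus the 2 of TRULI_d10 and the 2 labelled TRULI_d5 but named DMSO_d10. Gata3 (ENSMUSG00000015619, chromosome 2, 9857078 to 9890034) ran the other way. It was at 1.2, 1.98 and 1.74 CPM in DMSO_d5, at 5.18, 6.84 and 3.43 CPM in the libraries labelled TRULI_d5, at 2.74 and 4.27 CPM in those labelled DMSO_d10, and at 8.54 and 8.97 CPM in TRULI_d10. The same 4 libraries were the highest. Across the 10 libraries, which share these depth and mt-Rnr2 differences, the Pearson r of log2(CPM + 1) was -0.85 between Sox2 and Gata3. This was the lowest of the 28 pairs of factors, and 0.89 between Sox9 and Sox21 was the highest.

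The sequences before the transcription starts of this pair are shown because their levels ran in opposite directions. RefSeq's promoter table for GRCm38.p6 has 9 windows for 6 of the 9 factors, and the 250 bases before the start were searched on both strands. The hexamer GGAATG, the core of the Tead motif through which Yap acts, was in 0 of the 9 windows and in 12.6% of 32817 windows of all genes. The Sox cores ACAAAG or ACAATG, which do not overlap the Tead core, were in 4 of the 9 windows, of Sox2, Pax2 and Prox1, and in 25.2% of all windows. Capitals mark the match in the Sox2 window, and this match begins 206 bases before the RefSeq start. The Sox2 window is chr3:34649745-34649994 on the plus strand and the Gata3 window is chr2:9878601-9878850 on the minus strand, both written 5′ to 3′. The Gata3 window lies within the annotated span of the gene, whose 5′ end on the minus strand is at 9890034. A match describes these letters only.
Sox2: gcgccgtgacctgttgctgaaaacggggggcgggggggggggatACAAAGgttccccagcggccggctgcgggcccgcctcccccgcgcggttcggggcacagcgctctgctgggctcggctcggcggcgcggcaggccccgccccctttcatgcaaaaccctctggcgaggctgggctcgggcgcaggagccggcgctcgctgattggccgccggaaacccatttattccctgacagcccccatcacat
Gata3: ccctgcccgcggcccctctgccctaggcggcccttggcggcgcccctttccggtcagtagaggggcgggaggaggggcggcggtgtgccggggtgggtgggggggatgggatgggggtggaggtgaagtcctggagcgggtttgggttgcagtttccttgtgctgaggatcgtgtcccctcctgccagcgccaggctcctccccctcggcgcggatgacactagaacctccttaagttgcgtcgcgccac

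After 5 days, which asks what inhibition of Lats does to these factors while the compound is present, none of the 8 factors that passed the filter on low counts passed the test between TRULI and DMSO in either grouping. Pax2 was removed by the filter. By sample label 0 of 8 passed an adjusted p of 0.05 in edgeR's quasi-likelihood test, in which 0.00945% of tested protein-coding genes passed; 1 had an unadjusted p under 0.05 (13.7% of all genes), and DESeq2 called 0. That gene was Gata3, at 1.64 ± 0.397 CPM in DMSO (SD, n = 3) and 5.15 ± 1.71 CPM in the libraries labelled TRULI (SD, n = 3). Its log2 fold change was 1.64 (95% interval 0.0939 to 3.18, edgeR adjusted p = 0.353). Gata3 was also the 1 factor of 8 whose groups did not overlap, as for 18.4% of all tested genes. The other 7 log2 fold changes lay between -0.35 (Sox2, 95% interval -1.26 to 0.569) and 0.20 (Sox21, -0.739 to 1.14). Eya1 had the narrowest interval, -0.644 to 0.726 around 0.04.

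By deposited name, where all 6 libraries of the 5-day comparison had a high mt-Rnr2 share, the intervals were narrower. Again 0 of 8 factors passed in edgeR's test, against 3.3% of tested genes; 0 had an unadjusted p under 0.05 (16.4% of all genes) and DESeq2 called 0. Sox2 was at 71.7 ± 18.7 CPM in DMSO and 73.8 ± 11.8 CPM in the libraries named TRULI_d5 (SD, n = 3 each), a log2 fold change of 0.07 (95% interval -0.482 to 0.618). Sox9 was at -0.29 (-0.786 to 0.21) and Sox21 at -0.35 (-0.893 to 0.189). Gata3 had 3.48 ± 0.764 CPM (SD, n = 3) with TRULI, higher in 3 of 3 libraries than in DMSO, at a log2 fold change of 1.08 (-0.13 to 2.29, edgeR adjusted p = 0.37). Isl1 had 49.2 ± 9.5 CPM with TRULI against 67.1 ± 5.26 CPM (SD, n = 3 each), lower in 3 of 3 libraries, at -0.42 (-0.922 to 0.0741, edgeR adjusted p = 0.397). Groups of 21.4% of all tested genes did not overlap in this comparison. Within the 3 pairs of libraries with the same number in their names, Sox9, Sox21 and Isl1 were lower with TRULI in 3 of 3 pairs and Gata3 was higher in 3 of 3. Thus 4 of 8 factors went one way in every pair, as did 45.2% of all tested genes. With the number as a block the log2 fold change was -0.29 for Sox9 (edgeR adjusted p = 0.266) and -0.34 for Sox21 (edgeR adjusted p = 0.226), and 0 factors passed. In the same libraries 4 of 5 tested Yap targets rose, Ccn2 by 5.57 on the log2 scale (SE 0.31, edgeR adjusted p = 2.76e-05).

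After withdrawal, the question is what remained 5 days after the compound was removed. By sample label 0 of 8 factors passed, against 2.05% of tested genes; 1 had an unadjusted p under 0.05 (24.6% of all genes) and DESeq2 called 0. Sox2 had 32.3 ± 1.04 CPM in TRULI_d10 and 69.1 ± 11.9 CPM in the libraries labelled DMSO_d10 (SD, n = 2 each), a log2 fold change of -1.09 (95% interval -1.99 to -0.178, edgeR adjusted p = 0.145). Gata3 was at 1.32 (-0.436 to 3.07, edgeR adjusted p = 0.319) and Sox21 at 0.61 (-0.18 to 1.4, edgeR adjusted p = 0.307). The groups did not overlap for 6 of 8 factors and for 58.1% of all tested genes; 4 factors were higher with TRULI (27.5% of genes) and 2 lower (30.7%). Here mt-Rnr2 took 1.45% and 2.5% of the counts with TRULI and 23.7% and 13% in the labelled controls, so that treatment and this difference cannot be told apart.

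By deposited name both withdrawal groups had a low mt-Rnr2 share. Again 0 of 8 factors passed, with 0 at an unadjusted p under 0.05 (4.52% of all genes) and 0 called by DESeq2, and 0% of all tested genes passed. Sox2 was at 41.5 ± 8.28 CPM in the libraries named DMSO_d10 (SD, n = 2), a log2 fold change of -0.35 (95% interval -1.54 to 0.843), and Gata3 at 6.01 ± 1.18 CPM (SD, n = 2), a log2 fold change of 0.56 (-1.36 to 2.48). Both Eya1 and Gata3 were higher in 2 of 2 TRULI_d10 libraries than in both libraries named DMSO_d10, and Sox2 was lower; 28.7% of tested genes did not overlap. The difference of the TRULI effect between withdrawal and 5 days passed for 0 of 8 factors in either grouping and for 0% of all tested genes, with 0 by DESeq2 and 0 at an unadjusted p under 0.05, against 6.65% of genes by label and 9.31% by name. The intervals were wide: the difference for Sox2 was -0.73 by label (-2 to 0.547) and -0.41 by name (-1.39 to 0.565).

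Between day 5 and day 10, no factor passed the test when days came from the labels. When they came from the deposited names, 1 factor, Sox2, passed within TRULI and none within DMSO. By label, 0 of 8 factors passed in DMSO (2.49% of tested genes), with 0 by DESeq2 and 0 at an unadjusted p under 0.05 (15%), and 0 of 8 in TRULI (0% of tested genes), with 0 by DESeq2 and 0 at an unadjusted p under 0.05 (3.03%). Sox2 was at -0.04 in DMSO (95% interval -0.677 to 0.605) and at -0.77 in TRULI (-2 to 0.463).

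By name, Sox2 fell in TRULI from 73.8 ± 11.8 CPM (SD, n = 3) at day 5 to 32.3 ± 1.04 CPM (SD, n = 2) at day 10, a log2 fold change of -1.16 (SE 0.32, edgeR adjusted p = 0.0446). It was the 1 of 9 tested factors that passed, against 14.1% of all tested genes in either direction and 5.92% downward. The call rests on each library: with any 1 of the 5 left out the adjusted p was 0.0635 to 0.17, and it was 0.0954 with the replicate number as a block, in which 0 factors passed. Whether libraries of the same number at different days belong together was not examined, so the fit with the block cannot speak for a real pairing. In DMSO 0 of 8 passed, against 19.2% of tested genes, with 1 at an unadjusted p under 0.05 (36.6% of genes) and 0 by DESeq2. Sox2 there had a log2 fold change of -0.79 (95% interval -1.59 to 0.000795, edgeR adjusted p = 0.137) and Gata3 of 1.82 (0.268 to 3.38, edgeR adjusted p = 0.0906). Pax2 was tested only in TRULI by name, at 17, 10 and 2 counts at day 5 and 3 and 0 at day 10 (edgeR adjusted p = 0.185).

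**Figure D3:**
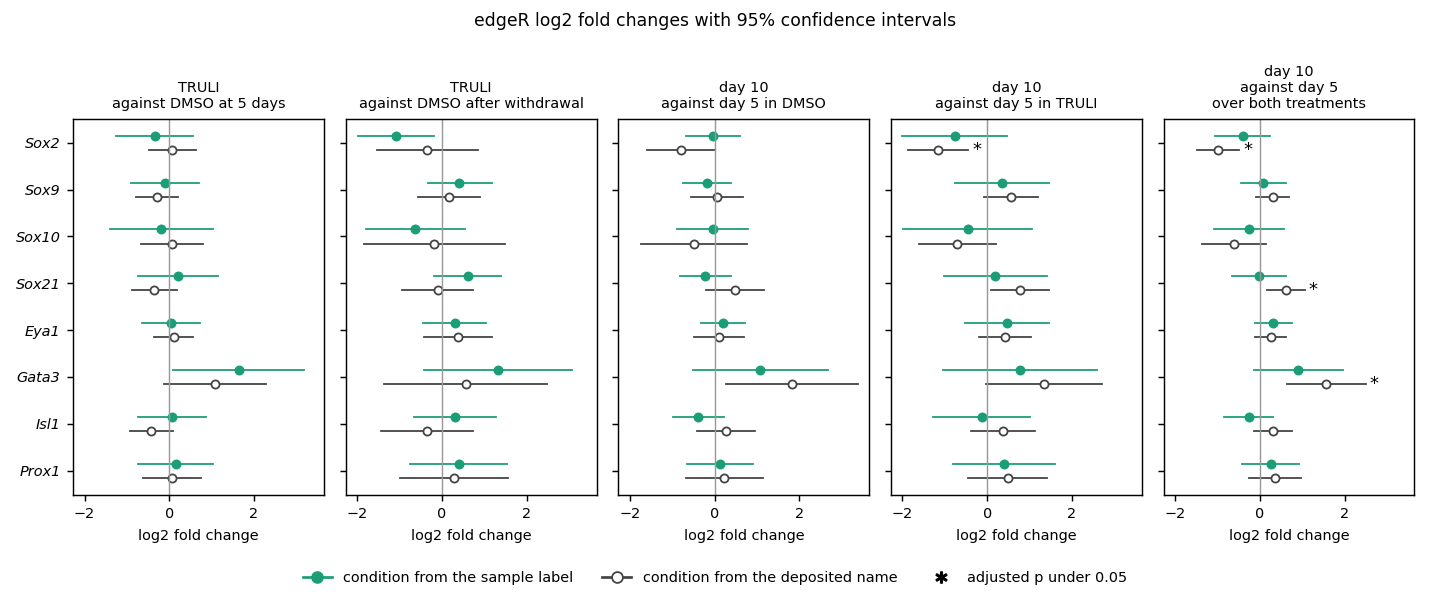
Log2 fold changes (points) with 95% confidence intervals (lines) of 8 factors in 5 comparisons by edgeR, with the condition from the sample label (filled) or the deposited name (open); asterisks mark an adjusted p under 0.05. No filled point has an asterisk, and the 4 asterisks are at Sox2 in both right-hand comparisons by name and at Sox21 and Gata3 in the last.

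A fit over all 10 libraries with treatment as a term, added after these values were seen, gave the day effect more precisely. By name, Sox2 had 52.4 to 89.7 CPM (median 75.2, n = 6) at day 5 and 31.6 to 47.4 CPM (median 34.3, n = 4) at day 10, without overlap. Its log2 fold change was -0.98 (SE 0.23, edgeR adjusted p = 0.00639). Gata3 had 1.2 to 4.27 CPM (median 2.36) at day 5 and 5.18 to 8.97 CPM (median 7.69) at day 10, also without overlap, at 1.57 (SE 0.43, edgeR adjusted p = 0.0143). Sox21 rose from a median of 243 CPM (175 to 353) to 383 CPM (311 to 464), at 0.62 (SE 0.21, edgeR adjusted p = 0.0355), with overlapping ranges. Thus 3 of 8 factors passed, a share near the 34.7% of all tested genes that passed (18.3% upward and 16.4% downward), and 2 of 8 did not overlap, against 24.3%. Sox2 and Gata3 passed with each library left out in turn. Sox21 lost its call in 6 of these 10 fits, with an edgeR adjusted p of 0.0719 without DMSO_d5 replicate 1, 0.0572 without DMSO_d5 replicate 3, and, by the numbers of the names, 0.0794 and 0.0659 without TRULI_d5 replicates 1 and 2, 0.097 without DMSO_d10 replicate 1 and 0.114 without TRULI_d10 replicate 1. Eya1 (0.26, 95% interval -0.116 to 0.627), Sox9 (0.30, -0.0981 to 0.7), Isl1 (0.31, -0.14 to 0.767), Prox1 (0.36, -0.258 to 0.971) and Sox10 (-0.60, -1.36 to 0.153) did not pass. The same fit by label passed 0 factors and 0% of all tested genes, with 0 factors at an unadjusted p under 0.05 (5.95% of genes) and 0 by DESeq2. Since the libraries named for day 10 are those with the low mt-Rnr2 share, day and this difference cannot be told apart.

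Ratios between factors within a library are given as a description, since the pairs were chosen after the levels above were seen. The ratio of Sox21 to Sox2 in FPKM was 1.08 to 2.84 in the 6 libraries named for day 5 and 4.81 to 6.96 in the 4 named for day 10. The ratio of Sox9 to Sox2 was 2.72 to 7.25 and 8.1 to 13.2. The ratio of Sox9 to Eya1 overlapped, at 2.47 to 4.04 and 2.82 to 3.63. These ratios restate the opposite order of Sox2 and Sox21 by named day, which cannot be told apart from the mt-Rnr2 share.

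Isl1 (ENSMUSG00000042258, chromosome 13, 116298281 to 116309689), a LIM-homeodomain factor of sensory progenitors, neurons and nascent sensory cells, gave a different order in counts and per length. Its effective length in the deposited tables, which weights the annotated transcripts by their estimated abundance, was 870 to 1160 bases in the 6 libraries named for day 5 and 1218 to 2136 bases in the 4 named for day 10. No other factor but Pax2, on at most 17 counts, had an effective length that differed more than 1.04-fold. The library labelled TRULI_d5 replicate 2 had the longest, and its 65.2 CPM of Isl1 gave 28.6 FPKM, whereas 67.7 CPM in DMSO_d5 replicate 1 gave 93.6 FPKM. In CPM the libraries of both days overlapped, at 41.9 to 72.1 and 53.2 to 96.6. Comparisons of Isl1 in FPKM thus carry the transcript estimate, and the tests above use counts.

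**Figure D4:**
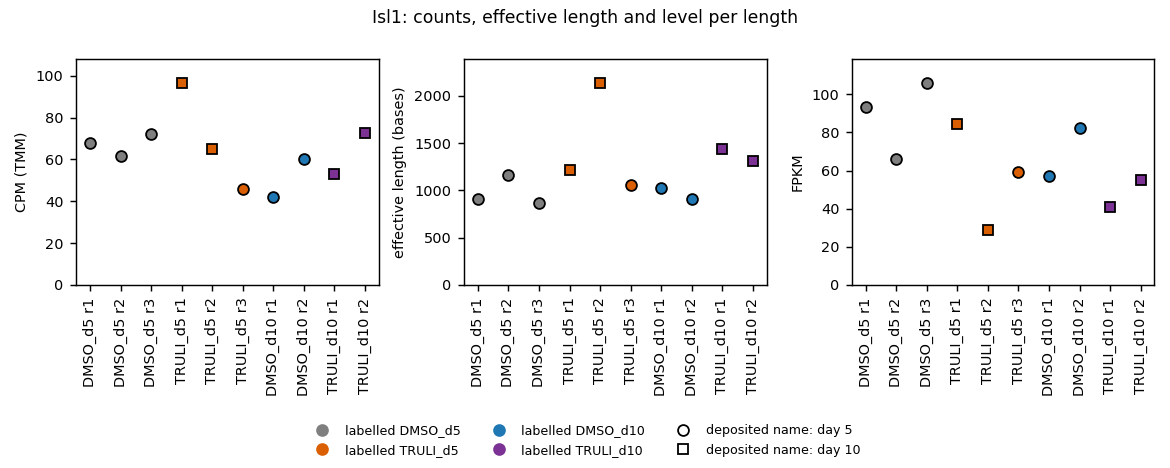
Isl1 in each library as TMM-scaled CPM, effective length in bases and FPKM, with linear axes from 0. The 4 squares (libraries named for day 10) have the longest effective lengths, from 1218 to 2136 bases.

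Sox10 (ENSMUSG00000033006, chromosome 15, 79154908 to 79165240) is also a gene of Schwann cells and melanocytes. It was at 24.8, 18.4 and 40.3 CPM in DMSO_d5, at 30.3, 9.36 and 32.7 CPM in the libraries labelled TRULI_d5, at 21.4 and 32.6 CPM in those labelled DMSO_d10, and at 17.3 and 17.5 CPM in TRULI_d10. The melanocyte genes Tyr, Tyrp1 and Mlana were at 0 in 10 of 10 libraries, and the list's summed FPKM, nearly all Pmel, was 0.178 to 9.3. The melanocyte sum was 5.82 to 9.3 in the libraries named for day 5 and 0.178 to 4.15 in those named for day 10. Pmel, on 1 to 63 counts, was the 1 gene of this list that was tested. It passed lower by named day over both treatments, at a log2 fold change of -1.82, against 16.4% of all tested genes downward. Of the 8 Schwann-cell genes, 3 to 6 had a count in a library. The Schwann list summed to 51.2 to 415 FPKM, of which Egr2, also an immediate-early gene, gave 31.2 to 401 and Mbp, a myelin protein, 8.02 to 30.8. Both were higher by named day over both treatments, Egr2 by 2.06 (edgeR adjusted p = 0.000559) and Mbp by 1.14 (edgeR adjusted p = 0.00436) on the log2 scale, and they were the 2 genes of the list that were tested. The Schwann sum was 51.2 to 159 in the libraries named for day 5 and 140 to 415 in those named for day 10, while Sox10 was at 18.4 to 40.3 and 9.36 to 30.3 CPM. The part of either cell type in the level of Sox10 was not tested.

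Sox9 (ENSMUSG00000000567, chromosome 11, 112782224 to 112787760) was at 484 to 892 CPM and Sox21 (ENSMUSG00000061517, chromosome 14, 118233232 to 118237030) at 175 to 464 CPM. Both were lowest in the library labelled TRULI_d5 replicate 3. Eya1 (ENSMUSG00000025932, chromosome 1, 14168954 to 14310235), a phosphatase and transcriptional coactivator, had 186 to 297 CPM and was highest in both TRULI_d10 libraries. Prox1 (ENSMUSG00000010175, chromosome 1, 190118035 to 190170714), a homeodomain repressor, was at 28 to 70.1 CPM, highest in TRULI_d10 replicate 1 and lowest in DMSO_d5 replicate 1. Pax2 lies on chromosome 19 (ENSMUSG00000004231, 44756045 to 44837871).

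The hair-cell marker list, which bears on factors shared by supporting cells and sensory cells, summed to 51.7 to 568 FPKM, with 9 to 11 of 12 genes detected in a library. By name, 9 of 9 tested genes of this list were higher with TRULI at 5 days and 7 of 7 after withdrawal. Of these, 7 and 5 had an unadjusted edgeR p under 0.05 (16.4% and 4.52% of all genes), and 0 passed. The median log2 fold change of all tested genes in these 2 comparisons was 0.022 and 0.00532. By label 8 of 9 and 7 of 10 were higher, and 0 passed, with medians of all tested genes of 0.0433 and 0.0145. Between named days within DMSO 5 of 9 passed, all lower, against 19.2% of all tested genes. Within TRULI 0 of 10 passed (14.1%). Over both treatments 3 of 10 passed, all lower, against 16.4% of all tested genes downward. By named day the sum was 132 to 568 at day 5 and 51.7 to 393 at day 10. The supporting-cell list was at 3046 to 5190 and 1390 to 2493 FPKM, so that it was lower in every library named for day 10, as was Sox2. Otog gave 592 to 3768 FPKM of this sum, and without it the list was at 1259 to 2576 and 798 to 1091 FPKM. Per gene, 3 of 10 fell between named days over both treatments and 0 rose, against 34.7% of all tested genes in either direction and 16.4% downward. Among those that did not pass, Otog had a log2 fold change of -0.68 (edgeR adjusted p = 0.0883), Tectb of 0.51 (edgeR adjusted p = 0.187) and Gjb6 of 0.22 (edgeR adjusted p = 0.451). Within DMSO alone by name 3 of 10 passed, all lower, against 19.2% of all tested genes. These were Lfng, the gene of the reporter, at -3.63 (edgeR adjusted p = 0.00549), Otogl at -2.02 (edgeR adjusted p = 0.014) and Slc1a3 at -1.19 (edgeR adjusted p = 0.0299). The neuron list was at 5.45 to 50.9 and 0.361 to 32.9, the mesenchyme list at 1.05 to 24.1 and 4.48 to 16.2, the immune list at 1.61 to 19.3 and 1.35 to 30.6 and the endothelial list at 0 to 0.654 and 0 to 1.5 FPKM. The list of dark cells and roof epithelium was at 53.6 to 116 and 25.8 to 50.4 FPKM. The part of these markers in the differences of Sox2 and Gata3 was not tested.

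Genes that belong to the same network were counted from lists. Of 15 other Sox genes, 7 had at least 10 counts on average, led by Sox13 (11.9 to 63.1 FPKM), Sox6 (6.54 to 66.6) and Sox5 (6.84 to 31.3), all of the SoxD group, and Sox3, Sox14, Sox17 and Sox18 were at 0 in 10 of 10 libraries. Of the 10 listed Pax, Eya, Dach and related genes, 8 had that level, among them Six4 at 26.6 to 60.8 and Eya4 at 6.82 to 52.3 FPKM. Of 18 other otic transcription factors, 13 had it, with Id4 (108 to 199 FPKM), Sall2 (61.3 to 158) and Meis2 (37.8 to 91.6) the highest. Among 12 genes of prosensory signalling 10 had it, led by Hey1 (141 to 452 FPKM), Ctnnb1 (164 to 363) and Lfng (9.6 to 374).

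By label, edgeR called 0 genes of the first 3 lists in the 4 comparisons. At an unadjusted p under 0.05 there were 2 of 27 tested genes at 5 days (13.7% of all genes), 4 of 29 after withdrawal (24.6%), 2 of 29 between days in DMSO (15%) and 1 of 29 in TRULI (3.03%). DESeq2 called 1 gene of these lists, Hmx2 after withdrawal. Of prosensory signalling, Lfng, which encodes a glycosyltransferase that modifies Notch and drives the reporter used for the sort, fell after withdrawal by 2.32 on the log2 scale (SE 0.44, edgeR adjusted p = 0.0463). It was the 1 of 10 tested genes that passed, against 2.05% of all tested genes, and 4 of the 10 were lower at an unadjusted p under 0.05. DESeq2 called Lfng and Hey2 lower after withdrawal and Hes5 lower at 5 days. With these labels, treatment after withdrawal cannot be told apart from the mt-Rnr2 share. By name edgeR called 0 genes of all 4 lists at 5 days and after withdrawal. Lfng went the other way by name after withdrawal, higher in TRULI_d10 at a log2 fold change of 0.98 (95% interval -0.396 to 2.36). At 5 days 9 of 37 tested genes had an unadjusted p under 0.05, 6 higher and 3 lower, against 16.4% of all genes, and DESeq2 called Hes1 and Hes5, both lower. After withdrawal 1 of 36 had such a p, against 4.52%, and DESeq2 called 0. The share of all genes that DESeq2 called is not reported here, so its calls in these lists cannot be set against it.

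Over both treatments by name, 11 of the 40 genes of these lists that were tested differed between days, against 34.7% of all tested genes. Of the other Sox genes, 2 of 8 rose, Sox13 by 1.42 (SE 0.29, edgeR adjusted p = 0.00296) and Sox1 by 0.68 (SE 0.24, edgeR adjusted p = 0.0477). Of the list of Pax, Eya, Dach and related genes, Six2 rose by 1.34 and Six5 by 1.18, and Eya2, a paralog of Eya1, fell. Eya2 had 6, 14, 14, 14, 12 and 15 counts in the libraries named for day 5 and 0 counts in all 4 named for day 10, at least 5.1-fold lower against 3 counts per library. Eya1 in the same libraries had 186 to 243 and 217 to 297 CPM. Of the other otic factors, Tbx2, a T-box repressor, rose by 0.85 (SE 0.18, edgeR adjusted p = 0.00328), from 44.5 to 48 CPM in the 6 libraries to 77.4 to 95.2 CPM in the 4, and Hmx3, a homeobox gene of vestibular development, rose by 1.25.

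Of prosensory signalling, Hes5, Lfng and Hey2 fell and Hey1 rose. Hes5, a Notch target, had 9 to 66 counts in each library named for day 5 and 0, 0, 0 and 1 in those named for day 10. Lfng fell by 2.87 (SE 0.39, edgeR adjusted p = 0.000274). Within TRULI alone by name, 6 of 39 tested genes of the 4 lists passed, Sox13 and Hmx2 higher and Eya2, Hes5, Lfng and Hey2 lower, against 14.1% of all tested genes. Within DMSO alone 4 of 37 passed, Six2 higher and Eya2, Hes5 and Lfng lower, against 19.2%.

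**Figure D5:**
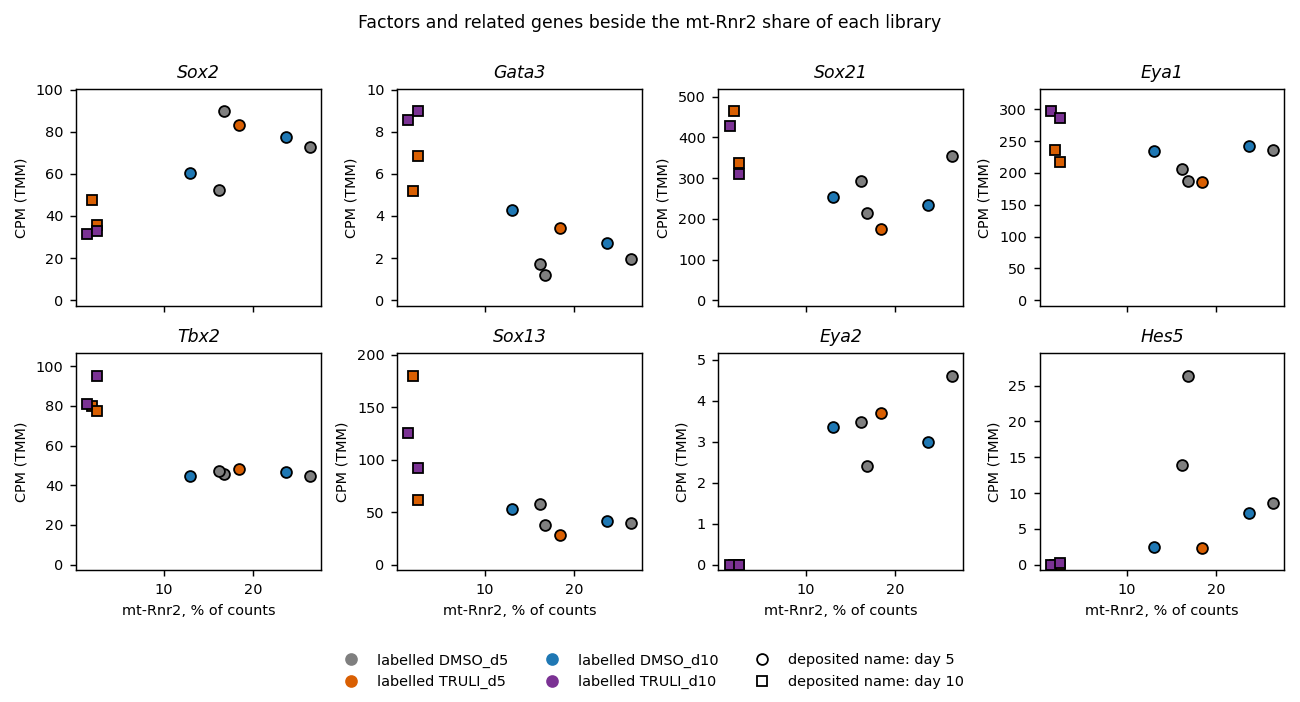
TMM-scaled CPM of 4 of the factors (top) and 4 related genes (bottom) against the mt-Rnr2 share of each library in percent, with colour for the labelled condition and squares for libraries named for day 10. The 4 squares lie at 1.45% to 2.53%, with Sox2 and Hes5 below and Gata3 and Tbx2 above the 6 circles, and Eya2 at 0.

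The genes whose log2(CPM + 1) followed a factor most closely over the 10 libraries were taken as a description, without a test. Sox2 was closest to Rev3l (Pearson r 0.98), Rab39b (0.98) and Pmpca (0.97). Sox9 was closest to Igfbp4 (0.98), Tectb (0.97), a tectorial and otolithic membrane gene of supporting cells, and Zfp36 (0.96). Sox21 was closest to Prnp (0.95), Txnip (0.95) and Amer1 (0.94). Eya1 was closest to Cd14 (0.98), Rsad1 (0.98) and Sox1 (0.96), and Gata3 to S100a16 (0.98), Tmem201 (0.98) and Myl12a (0.97). Sox10 was closest to Med12 (0.98), Dyrk1b (0.92) and Med24 (0.92), Isl1 to Clip3 (0.94), Fcgrt (0.92) and B3galt5 (0.90), and Prox1 to Slc38a1 (0.94), Atn1 (0.93) and Mprip (0.91). No gene stood in the 3 closest of more than 1 factor.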

How the data were processed

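RNA from supporting cells sorted from cultured murine utricles was sequenced in 10 libraries. The authors mapped the reads with STAR to GRCm38 (mm10) and deposited, for each library, expected counts per gene and an effective length; the counting program is not given in the sources used here. The methods and the labels name different library kits. The deposited expected counts are not normalized, and they were rounded to whole numbers here. Other deposited columns were not used.

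Gene names, biotypes and positions came from GENCODE M21 (48349 of 48709 genes matched, 21695 protein-coding). Counts were filtered with filterByExpr, scaled by TMM and compared with the quasi-likelihood test of edgeR 4.0.16 (R 4.3.3), all genes in the fit and the libraries of each comparison alone, with Benjamini-Hochberg adjustment over all tested genes. A gene passed at an adjusted p under 0.05, and background shares cover tested protein-coding genes. Standard errors are the size of the log2 fold change over the square root of F. CPM use TMM factors over the 10 libraries, and FPKM use effective lengths and the protein-coding total. Non-overlap means that all CPM of a group lay on one side of the other group's. Conditions came from the sample labels, with the deposited names as the alternative, because they differ for 4 libraries. The other alternatives were DESeq2 1.42.0, RLE size factors, no filter, protein-coding genes only, all 10 libraries in one fit, a fold threshold, the replicate number as a block and leaving out each library. The following fits were added after the values were seen: day over both treatments, and the 5-day comparison with only the libraries whose label and name agree.

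Named genes were the 9 factors, up to 3 genes of each list that passed, by size, or otherwise the 3 with the highest mean FPKM, and the 3 genes closest to each factor. Some genes that this rule picks are not reported here. Genes called only by DESeq2 or listed at 0 were named after their values were seen. The factors and lists were chosen with earlier results of these data known. Same-numbered libraries deviated together at 5 days by name (correlations 0.352, 0.164 and 0.291), where the numbers were taken to pair the libraries, and not by label (-0.141, 0.0534 and -0.182). The code was tested on simulated counts. Depths of 2463872 to 6255149 counts per library limit precision most for Gata3 and Pax2. Paralogs can share reads. Promoter sequences are RefSeq's for GRCm38.p6.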

Additional observations from a re-analysis of the deposited data

How the results depend on the processing

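The grouping of the libraries was the choice that changed most. With the condition from the deposited name in place of the label, log2 fold changes turned at 5 days for Isl1 (-0.42), Sox10 (0.066), Sox2 (0.0681) and Sox21 (-0.35), after withdrawal for Isl1 (-0.35) and Sox21 (-0.10), between days in DMSO for Isl1 (0.26), Sox21 (0.47) and Sox9 (0.0549), in TRULI for Isl1 (0.38), and over both treatments for Isl1 (0.31) and Sox21 (0.62). The number of factors called then rose to 1 lower in TRULI between days, and to 2 higher and 1 lower over both treatments; with a log2 fold change beyond 1 also required, the last comparison had 1 higher and 0 lower. With only the libraries whose label and name agree, 1 TRULI against 3 DMSO libraries at 5 days, where the lone library is assumed to vary like the others, the values were -0.17 for Eya1, -0.55 for Isl1, -0.12 for Prox1, 0.22 for Sox10, 0.22 for Sox2 and -0.70 for Sox21. The cause was not tested.

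The replicate number as a block turned Sox10 after withdrawal by name (0.0319), in DMSO between days (0.32), in TRULI (0.0229) and over both treatments (0.14), and Sox21 in TRULI (-0.11), all by label but the first. It removed the call of Sox2 in TRULI by name, leaving 0 factors lower, and changed no other call of a factor. Between days this block pairs libraries by number alone, and whether such libraries belong together was not examined. DESeq2, RLE size factors, no filter, protein-coding genes only and all 10 libraries in one fit turned no direction of a factor.

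With 1 library left out, the number of factors lower in TRULI between days by name was 0 to 0 and the number higher over both treatments by name 1 to 2. Directions that turned in such fits were those of factors that had not passed, and not all of these changes were small. With all libraries, Prox1 in TRULI between days by name was at 0.489 and Sox10 in DMSO between days by name at -0.487. At 5 days the ranges were -0.0365 to 0.12 for Eya1, -0.23 to 0.26 for Isl1, -0.023 to 0.51 for Prox1, -0.49 to 0.19 for Sox10, -0.11 to 0.47 for Sox21 and -0.25 to 0.0549 for Sox9 by label, and -0.15 to 0.43 for Prox1, -0.17 to 0.43 for Sox10 and -0.13 to 0.25 for Sox2 by name. After withdrawal they were -0.26 to 0.81 for Prox1 by label, and -0.36 to 0.72 for Prox1, -0.78 to 0.89 for Sox10 and -0.37 to 0.13 for Sox21 by name. Between days in DMSO they were -0.19 to 0.51 for Prox1, -0.38 to 0.34 for Sox10 and -0.22 to 0.16 for Sox2 by label, and -0.008 to 0.54 for Isl1, -1.54 to 0.13 for Sox10 and -0.0641 to 0.19 for Sox9 by name. In TRULI they were -0.35 to 0.17 for Isl1, -0.24 to 0.85 for Prox1 and -0.10 to 0.52 for Sox21 by label, and -0.12 to 0.89 for Prox1 by name. Over both treatments by label they were -0.0056 to 0.44 for Prox1, -0.18 to 0.12 for Sox21 and -0.0315 to 0.18 for Sox9. For the difference of the TRULI effect they were -0.60 to 0.0775 for Gata3 and -0.37 to 0.70 for Prox1 by label, and -0.19 to 0.39 for Isl1, -0.40 to 0.66 for Prox1 and -0.86 to 0.84 for Sox10 by name. Depth limits Gata3 (3 to 49 counts) and Pax2 (0 to 17 counts).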
